A study of Homo sapiens with 6 samples.

Results

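The kinesins are the family of motor proteins that walk along microtubules with energy from ATP. Genes of the family were taken by their symbols, as protein-coding genes named KIF with a number and at most 1 letter, or KIFC1, KIFC2 or KIFC3. The rule gave 42 of the 58884 genes in the count tables, and it used no measured value. The unitary pseudogene KIF28P has a symbol of the same form and was left out because it is not protein-coding. By their known roles, 14 members were grouped as mitotic kinesins, 15 as transport kinesins and 13 as other kinesins. A kinesin named otherwise, CENPE, was counted with the partners of the mitotic kinesins.

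Kinesins share a motor domain that binds microtubules, and most of them move toward the plus end, whereas KIFC1 and its relatives move toward the minus end. In dividing cells the mitotic kinesins separate the spindle poles, move and align chromosomes, take subunits from microtubule ends and build the midzone of the late spindle, and many of their transcripts rise toward mitosis. The transport kinesins carry vesicles, mitochondria, lysosomes and intraflagellar cargo, mostly through light chains and adaptor proteins, in cells that divide and in cells that do not. Anti-mitotic compounds have been made against several mitotic kinesins, KIF11 among them.

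RNA was sequenced from HSC-4, an established human oral squamous cell carcinoma line. DAPT, a γ-secretase inhibitor that blocks the cleavage of Notch receptors, was added at 50 µM for 24 h in 3 libraries, and 3 control libraries were made without it. The methods of the study give DMSO as the vehicle of the controls, while the deposited design speaks of normal growth medium and the control count columns carry the letters GM. If these cultures had no DMSO, an effect of the vehicle and one of DAPT cannot be told apart. No genetic change was made to the line, and no source used here says that the 3 libraries of a group came from separate cultures, so p-values measure the spread between these libraries, which may be technical. The libraries held between 12276313 and 16317672 counted reads. In these bulk samples, fewer dividing cells and less RNA per cell cannot be told apart.

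Control replicate 1 stood apart from the other 5 libraries. The 6 fibroblast markers, which were COL1A1, COL1A2, COL3A1, DCN, LUM and PDGFRB, summed to 552.5 CPM there, to 57.2 and 58.3 CPM in the other controls, and to between 50.0 and 55.2 CPM with DAPT. CPM are read counts scaled to the normalized size of each library. COL1A2, a chain of type I collagen, had 3452 reads in that library and between 3 and 28 in the others. The 14 mitotic kinesins summed to 1447 CPM in the same library, between the 1432 and 1458 CPM of the other controls. The part of these transcripts' source in the kinesin values was not tested, and the counts of called genes in each list are also given without that library. Among the treated libraries, DAPT replicate 1 differed more from the other DAPT libraries (chi-square per gene 4.08 and 3.90) than these did from each other (1.81), and without it the median log2 fold change of the mitotic kinesins was -0.31 in place of -0.25, with 10 still called lower. The 7 epithelial markers all moved with DAPT. Their sum changed by -38.6%, from between 4706 and 4879 CPM in the controls to between 2885 and 3039 CPM. KRT5 (-1.04), KRT6A (-1.48), KRT17 (-0.88), TP63 (-0.58) and KRT14 (-2.79, on 0 to 49 reads) were lower on the log2 scale, and EPCAM (0.27) and CDH1 (0.27) were higher. What part this has in the kinesin values was not tested. The 5 leukocyte markers summed to between 8.92 and 12.9 CPM, nearly all of it CD14, which was lower with DAPT (log2 -0.30, adjusted p = 0.0444, edgeR), while CD3E had 0 reads and PTPRC between 0 and 2. The 4 endothelial markers summed to between 0.650 and 1.49 CPM. The Notch targets HES1 and HEY1 changed by log2 -0.77 and -1.98 with DAPT, with adjusted p-values of 7.2e-08 and 2.03e-13.

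Of the 42 kinesin genes, 35 passed the filter on low counts and were tested. With DAPT, 14 of them were lower and 5 were higher at an adjusted p-value under 0.05 (edgeR quasi-likelihood test, Benjamini-Hochberg adjustment), against 18.0% lower and 17.2% higher among all 15001 genes tested, or 35.2% in either direction. The lower calls were mostly mitotic kinesins, with 10 of the 13 tested lower and 0 higher, while 2 of 12 transport kinesins were lower and 3 were higher. Among the other kinesins, 2 of 10 were lower and 2 were higher. As shares, this was 16.7% lower and 25% higher for transport kinesins, and 20% each way for other kinesins. Neither group stood far from all genes tested, at 18.0% lower and 17.2% higher. The mitotic group leaves out KIF2A, which acts at spindle poles and in neurons, and the kinetochore kinesin CENPE. KIF2A and CENPE were not called, and the groups were set with earlier results of these data known. The median log2 fold change was -0.25 for the mitotic, 0.08 for the transport and -0.12 for the other kinesins, beside 0.01 for all genes tested. All changes were small: 0 of the 35 members reached a 2-fold change in either direction. Without control replicate 1, the counts were 10 lower and 0 higher for mitotic, 2 lower and 4 higher for transport, and 1 lower and 1 higher for other kinesins. In that fit 2892 of all 15162 genes tested were lower and 2726 were higher. These totals also stand beside the counts of the further gene lists without that library.

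**Figure D1:**
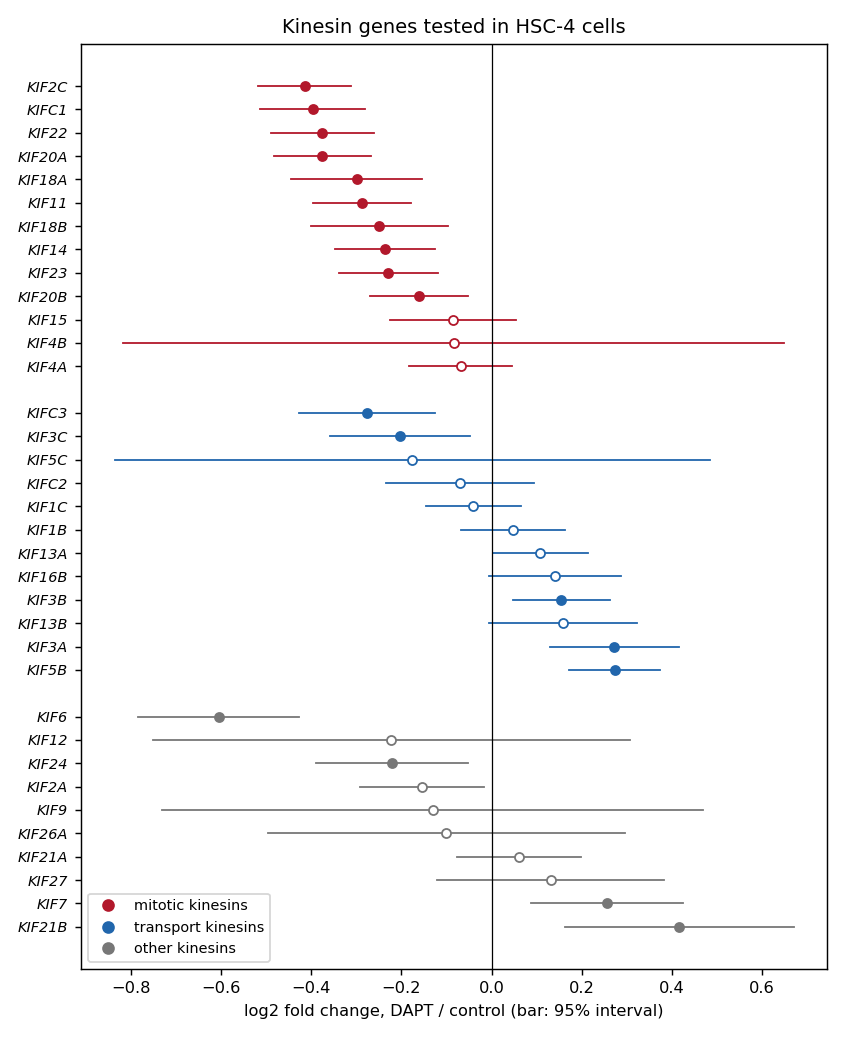
Log2 fold change of each tested kinesin gene, DAPT over control, on the x axis, with mitotic, transport and other kinesins in separate blocks, bars for the 95% interval and filled points for members called at 0.05. The 13 mitotic members lie below 0, from -0.41 to -0.07, while the transport members lie on both sides, from -0.28 to 0.27.

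The 7 members that were not tested had at most 5 reads in any library. KIF2B, a microtubule depolymerase related to KIF2C, KIF1A, a carrier of synaptic vesicle precursors in neurons, and KIF19 had 0 reads in all 6 libraries, which allows up to 3 reads in each, or between 0.187 and 0.248 CPM. KIF5A, KIF17, KIF25 and KIF26B had between 0 and 5 reads. Such limits cover counting error only. Among the tested members, KIF4B, KIF5C, KIF9 and KIF12 stayed under 3 CPM in each library, and their wide intervals left no difference detectable at this depth.

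The largest decreases among the mitotic kinesins were in KIF2C, KIFC1, KIF22 and KIF20A. KIF2C (MCAK), which takes tubulin from microtubule ends and corrects wrong kinetochore attachments, lies on chromosome 1 at 44739818 to 44767767 (GRCh38). It measured 147, 142 and 150.2 CPM in the controls and 111, 108 and 109.9 CPM with DAPT. The 3 DAPT libraries lay close together and far below the lowest control. The log2 fold change was -0.41 (SE 0.05, adjusted p = 1.19e-06, edgeR), a fold of 0.750.

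KIFC1 (HSET), the minus-end motor that bundles spindle microtubules and clusters extra centrosomes, measured 92.9, 101 and 96.2 CPM in the controls and 77.4, 70.6 and 72.1 CPM with DAPT. The groups did not overlap, and the log2 fold change was -0.40 (SE 0.06, adjusted p = 1.09e-05, edgeR). A pseudogene on the opposite strand, RPL12P1, covers 14.0% of the counted KIFC1 exon bases, and the reads were counted by strand. KIF22 (Kid), a chromosome-arm motor that pushes chromosomes toward the spindle equator, measured 97.3, 106 and 105 CPM in the controls and 79.2, 82.0 and 76.7 CPM with DAPT. It was lower in each DAPT library than in each control, with a log2 fold change of -0.38 (SE 0.06, adjusted p = 1.63e-05, edgeR).

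KIF20A (MKLP2), which brings the chromosomal passenger complex to the midzone for cytokinesis, measured 162, 170.4 and 174 CPM in the controls and 137, 129 and 124 CPM with DAPT. The log2 fold change was -0.38 (SE 0.05, adjusted p = 8.6e-06, edgeR), and the groups did not overlap. KIF23 (MKLP1), the motor of the centralspindlin complex, measured 234, 231 and 215 CPM in the controls and 206, 188 and 186 CPM with DAPT. Its change was smaller, at log2 -0.23 (SE 0.05, adjusted p = 0.00196, edgeR), again with no overlap. KIF14, which acts with citron kinase at the midbody, measured 103, 95.8 and 103 CPM in the controls and 84.1, 87.0 and 85.4 CPM with DAPT. It changed by log2 -0.24 (SE 0.05, adjusted p = 0.00146, edgeR), and no DAPT library reached the lowest control.

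KIF11 (Eg5), the tetrameric motor that pushes spindle poles apart, lies on chromosome 10 at 92593130 to 92655395. It measured 182, 166 and 176 CPM in the controls and 148, 137 and 144 CPM with DAPT. The groups were apart, and the log2 fold change was -0.29 (SE 0.05, adjusted p = 1.82e-04, edgeR). KIF15, which can take over part of the work of KIF11 in building a bipolar spindle, measured 50.0, 46.9 and 47.5 CPM in the controls and 48.1, 43.7 and 44.2 CPM with DAPT. The KIF15 groups overlapped, and its log2 fold change of -0.09 had a 95% interval from -0.22 to 0.05 (adjusted p = 0.342, edgeR). Per kilobase of exon, KIF11 was 3.82 ± 0.09 times KIF15 in the controls and 3.32 ± 0.10 times with DAPT (SD, n = 3), with no overlap. This pair was chosen after its values were seen, and no test was made, since an exact permutation test of 3 against 3 libraries cannot go below 0.1.

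KIF18A, a motor that damps the swings of aligned chromosomes, measured 57.7, 58.1 and 58.6 CPM in the controls and 52.4, 45.8 and 43.3 CPM with DAPT. The controls were close together, each DAPT library was lower, and the log2 fold change was -0.30 (SE 0.07, adjusted p = 0.0020, edgeR). Its relative KIF18B, a depolymerase of astral microtubule ends, measured 66.9, 74.0 and 78.7 CPM in the controls and 68.1, 59.3 and 56.6 CPM with DAPT. Here the groups overlapped, because DAPT replicate 1 lay above control replicate 1. The log2 fold change of KIF18B was -0.25 (SE 0.07, adjusted p = 0.0117, edgeR), and the call was lost without control replicate 3 (adjusted p = 0.0585), DAPT replicate 2 (0.0623) or DAPT replicate 3 (0.078). KIF20B (MPP1), which acts in the completion of cytokinesis, measured 149, 141 and 145 CPM in the controls and 137, 124 and 129 CPM with DAPT. It had the smallest called change of the group, at log2 -0.16 (SE 0.05, adjusted p = 0.0196, edgeR), and lost the call without DAPT replicate 2 (0.116) or 3 (0.0697) and when libraries were scaled by their size alone (0.0828).

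The remaining mitotic members were KIF4A and KIF4B. KIF4A, the chromokinesin that sets the length of the midzone with PRC1, measured 104, 99.1 and 107 CPM in the controls and 105, 95.1 and 96.03 CPM with DAPT. The groups overlapped, and the log2 fold change was -0.07 with a 95% interval from -0.18 to 0.05 (adjusted p = 0.356, edgeR). KIF4B is a near-identical intronless copy of KIF4A, so its 10 to 15 reads per library are uncertain. The other 8 of the 10 called mitotic kinesins, beside KIF18B and KIF20B, remained called with each of the 6 libraries left out in turn, with DESeq2, and under each other alternative. For the mitotic group, 9 of 13 had groups that did not overlap on the lower side, against 22.7% of all genes tested, and 0 on the higher side. Without control replicate 1 this was 10 and 0, against 29.2% and 29.5% of all genes. At an unadjusted p-value under 0.05, edgeR gave 10 lower and 0 higher, against 22.2% of all genes in each direction. DESeq2 called 10 lower and 0 higher, against 13.6% and 11.4% of the genes it tested. Over all tested kinesins, 14 lay wholly below and 7 wholly above the controls, against 46.3% of all genes in either direction, and without control replicate 1 these were 18 and 9.

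**Figure D2:**
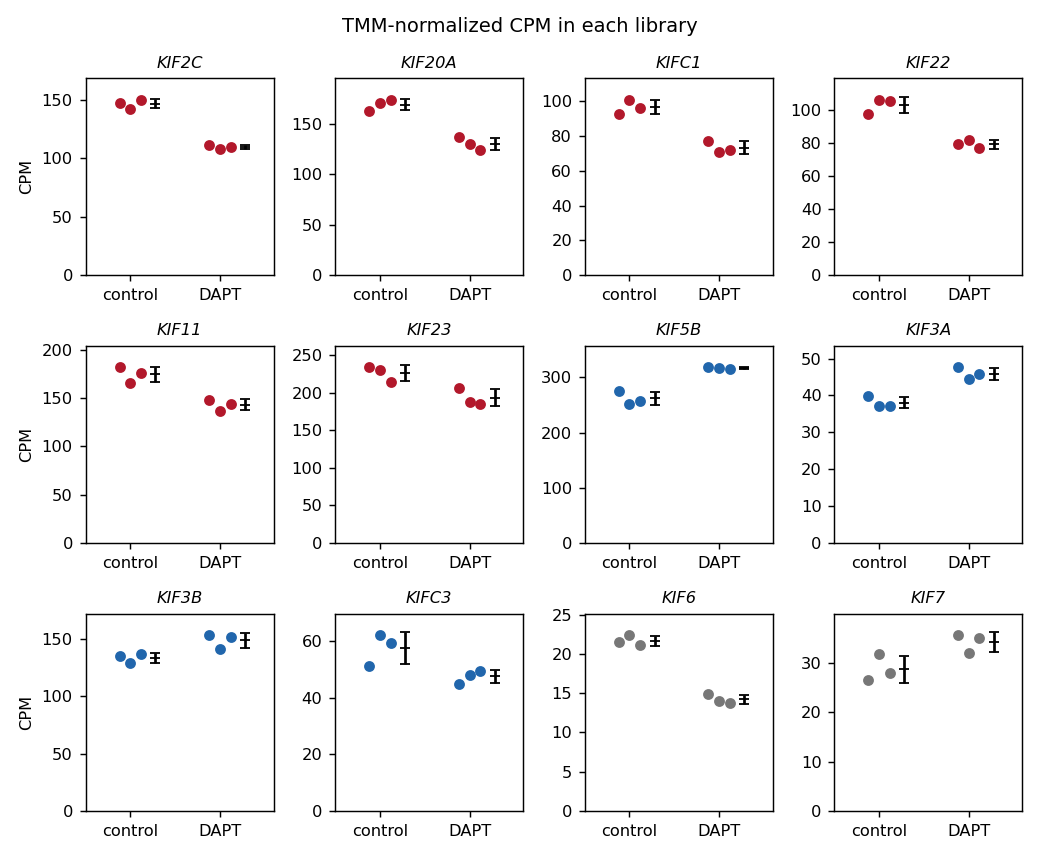
TMM-normalized CPM in each library for 12 kinesin genes, with 1 point per library in replicate order and, beside the points, a bar of the mean ± SD (n = 3) for control and DAPT. KIF2C falls from 142 CPM or more to 111 CPM or less, and KIF5B rises from 276 CPM or less to 315 CPM or more.

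The promoters of the mitotic kinesins are known for 2 elements that tie transcription to the cell cycle, the cell cycle genes homology region (CHR), which is bound by the MuvB core of the DREAM and B-MYB complexes, and the CCAAT box, which is bound by NF-Y. RefSeq promoter windows (GRCh38.p14), from 250 bases before to 50 bases after a start, were matched for 34 of the 42 genes. The windows were searched on both strands for a CHR, read only as TTTGAA or TTCGAA, and for the letters of a CCAAT box. An E2F site was searched in any of the 4 forms TTTCCCGC, TTTCGCGC, TTTGCCGC and TTTGGCGC. Other forms of the CHR were not searched, so a window said to have no CHR lacks a match to these 2 forms only. No match of 1 element shared a base with a match of another in the stretches shown. The stretches shown run from 100 bases before to 30 bases after the start, 5′ to 3′ on the strand of the gene, with matches in capitals. They were chosen as members that were lower with a CHR (KIF22, KIF11, KIF18A, KIF23 and KIFC1), lower without one (KIF20A), not called with one (KIF4A and KIF15), and higher (KIF5B and KIF3A).
KIF22 (chr16:29790651-29790780, + strand): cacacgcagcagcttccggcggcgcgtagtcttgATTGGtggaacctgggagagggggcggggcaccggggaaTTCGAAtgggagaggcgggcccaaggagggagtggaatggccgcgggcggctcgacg
KIF11 (chr10:92593030-92593159, + strand): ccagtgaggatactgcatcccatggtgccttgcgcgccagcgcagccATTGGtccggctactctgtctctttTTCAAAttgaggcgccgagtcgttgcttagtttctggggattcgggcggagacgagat
KIF18A (chr11:28108127-28108256, - strand): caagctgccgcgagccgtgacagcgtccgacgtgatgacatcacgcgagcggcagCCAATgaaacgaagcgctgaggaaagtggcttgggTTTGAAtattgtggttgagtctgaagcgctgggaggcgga
KIF23 (chr15:69414249-69414378, + strand): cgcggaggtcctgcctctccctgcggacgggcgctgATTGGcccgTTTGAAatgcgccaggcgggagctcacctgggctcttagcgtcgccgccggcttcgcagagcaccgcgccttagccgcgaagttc
KIFC1 (chr6:33391723-33391852, + strand): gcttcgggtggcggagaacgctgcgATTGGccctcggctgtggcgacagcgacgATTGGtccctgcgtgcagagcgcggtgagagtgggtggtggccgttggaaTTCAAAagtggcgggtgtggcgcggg
KIF20A (chr5:138179012-138179141, + strand): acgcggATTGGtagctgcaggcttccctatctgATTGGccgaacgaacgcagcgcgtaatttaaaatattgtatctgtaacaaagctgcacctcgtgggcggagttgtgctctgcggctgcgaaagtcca
KIF4A (chrX:70290004-70290133, + strand): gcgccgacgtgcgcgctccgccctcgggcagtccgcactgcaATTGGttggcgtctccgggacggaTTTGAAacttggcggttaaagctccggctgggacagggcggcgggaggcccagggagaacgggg
KIF15 (chr3:44761694-44761823, + strand): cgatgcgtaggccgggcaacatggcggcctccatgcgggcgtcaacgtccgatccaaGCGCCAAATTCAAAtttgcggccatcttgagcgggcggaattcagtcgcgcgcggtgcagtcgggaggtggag
KIF5B (chr10:32056396-32056525, - strand): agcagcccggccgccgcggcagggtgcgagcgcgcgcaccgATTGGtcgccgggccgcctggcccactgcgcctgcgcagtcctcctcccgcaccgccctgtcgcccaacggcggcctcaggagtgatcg
KIF3A (chr5:132737517-132737646, - strand): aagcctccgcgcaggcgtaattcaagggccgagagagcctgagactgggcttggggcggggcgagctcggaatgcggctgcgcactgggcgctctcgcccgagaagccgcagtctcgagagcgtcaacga

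In these stretches the CHR reads TTTGAA in KIF18A, KIF23 and KIF4A, TTCGAA in KIF22, and TTCAAA, its reverse complement, in KIF11, KIFC1 and KIF15. The CCAAT box lies on the strand of the gene in KIF18A and on the other strand, where it reads ATTGG, in KIF22, KIF11, KIF23, KIFC1, KIF20A, KIF4A and KIF5B. KIF15 and KIF3A had none. In KIF15 an E2F site on the reverse strand (GCGCCAAA) directly precedes the CHR, so that the 2 matches form 1 run of capitals without sharing a base. Counted to the first base of the match from the start at +1, the CHR lay at -27 in KIF22, -28 in KIF11, -10 in KIF18A, -55 in KIF23, +5 in KIFC1, -34 in KIF4A and -35 in KIF15. A CCAAT box lay upstream of the CHR in all of these but KIF15, as in KIF11 at -53 and in KIF4A at -58.

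Of the 14 mitotic kinesins, all with a window, 11 (78.6%) had a CHR, against 19.5% of 27305 genes and 16.4% of 35116 windows. A CCAAT box was also in 11 (78.6%, against 39.7% of genes), both elements were in 10 (71.4%, against 9.02%), and an E2F site was in 1 (7.14%, against 3.99%). The mitotic members without a match to either CHR form were KIF2B, KIF2C and KIF20A, and KIF20A had a pair of CCAAT boxes, at -94 and -67. The KIF20A stretch also holds tttaaa downstream of both boxes, which was not among the CHR forms searched. A CHR was in 1 of 11 transport kinesins, KIF5B, at -140 and so upstream of the stretch shown, and in 1 of 9 other kinesins, KIF24, at +2. Of the 13 kinesins with a CHR, 9 were lower, 1 was higher and 3 were not called. Of the 21 without, 4 were lower, 3 were higher, 10 were not called and 4 were not tested. Since 11 of the 13 with a CHR were mitotic, these counts cannot be told apart from the grouping of the members. Among the mitotic kinesins, 8 of the 11 with a CHR were lower, as were KIF2C and KIF20A without one. Of all genes tested, 18.0% were lower and 17.2% higher, and the shares among all genes with a CHR were not determined. KIF2C and KIF20A, among the largest decreases, had no match to the 2 CHR forms searched. A match was present in KIF4A and KIF15, which were not called. A match is a description of letters in the window, and no test of binding was made. The windows of KIF5A, KIF13B, KIFC2, KIFC3, KIF19, KIF21B, KIF26B and KIF27 were not analysed here.

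**Figure D3:**
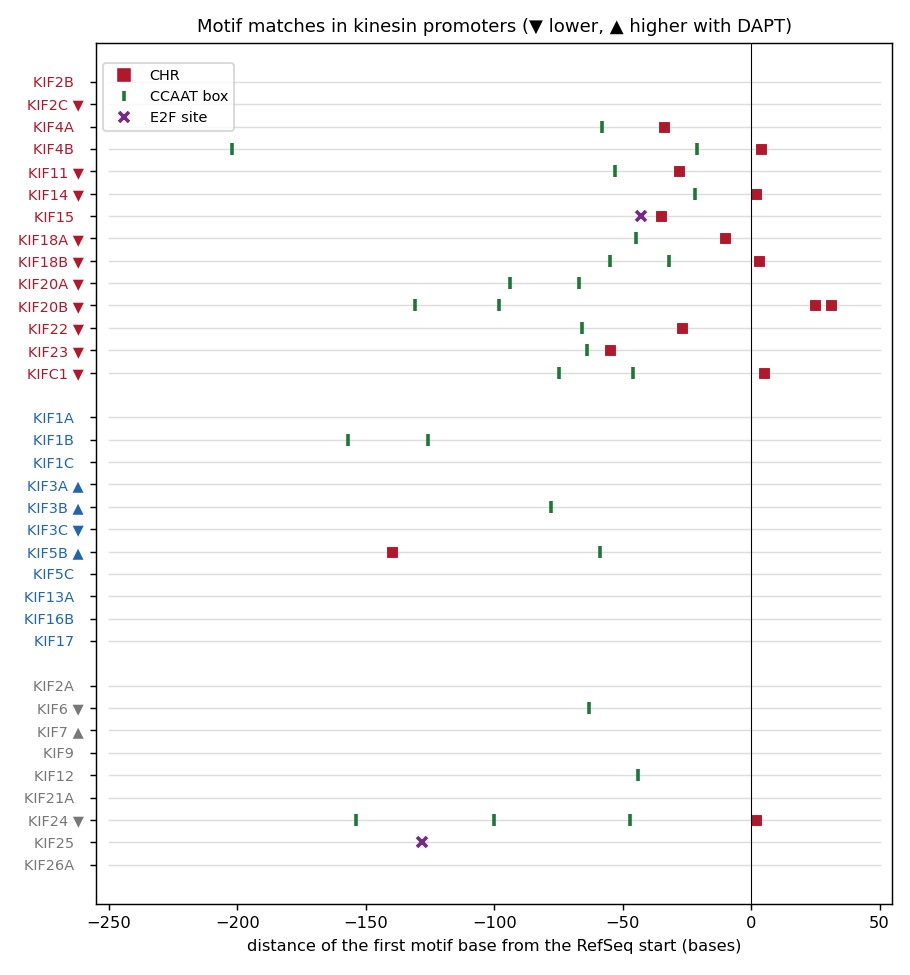
Matches to the CHR, the CCAAT box and the E2F site in the first RefSeq window of the 34 kinesin genes that had one. Positions are distances in bases from the start, and triangles after the name mark genes called lower or higher. CHR matches cluster near the start in the mitotic rows, where 11 of 14 genes have one. They occur in 1 of 11 transport and 1 of 9 other kinesins.

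Among the transport kinesins, KIF5B and KIF3A rose by the largest amounts. KIF5B, the conventional kinesin heavy chain that carries mitochondria, lysosomes and vesicles, lies on chromosome 10 at 32009015 to 32056425. It measured 276, 252 and 258 CPM in the controls and 318, 317 and 315 CPM with DAPT. Each DAPT library was above each control, and the log2 fold change was 0.27 (SE 0.05, adjusted p = 1.62e-04, edgeR), a fold of 1.21. KIF3A, a motor subunit of the heterotrimeric kinesin-2 that moves cargo into cilia, measured 39.8, 37.0 and 37.2 CPM in the controls and 47.6, 44.4 and 45.8 CPM with DAPT. It rose in each DAPT library, by log2 0.27 (SE 0.07, adjusted p = 0.00392, edgeR). Both calls remained with each library left out and with DESeq2.

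The motor subunits that pair with KIF3A differed in direction. KIF3B, the partner in the ciliary motor, measured 135, 129 and 137 CPM in the controls and 153, 141 and 152 CPM with DAPT, a log2 fold change of 0.15 (SE 0.05, adjusted p = 0.0240, edgeR). The groups did not overlap, but the call was lost without control replicate 2 (adjusted p = 0.128), DAPT replicate 1 (0.0718) or DAPT replicate 3 (0.087). KIF3C, which can take the place of KIF3B, measured 26.2, 27.4 and 26.2 CPM in the controls and 23.4, 22.6 and 23.2 CPM with DAPT, a log2 fold change of -0.20 (SE 0.07, adjusted p = 0.0382, edgeR). Its groups were also apart, yet the call held only without control replicate 1 among the 6 libraries left out, with adjusted p-values from 0.0522 to 0.122 without any other library, and it was lost with DESeq2 (0.167). Per kilobase, KIF3A was 1.34 ± 0.08 times KIF3C in the controls and 1.86 ± 0.03 times with DAPT (SD, n = 3), a pair chosen after its values were seen and not tested. KIFAP3, the non-motor subunit of kinesin-2, had a log2 fold change of 0.07 and was not called (adjusted p = 0.425, edgeR).

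KIFC3, a minus-end motor of epithelial junctions and of the Golgi, was the transport kinesin with the largest decrease. It measured 51.3, 62.1 and 59.3 CPM in the controls and 44.8, 48.2 and 49.6 CPM with DAPT, and the highest DAPT library lay just under control replicate 1. The log2 fold change was -0.28 (SE 0.07, adjusted p = 0.00532, edgeR), and the call remained with each library left out. KIF13A, an endosome carrier, and KIF13B, which moves with the polarity protein DLG1, were higher in each DAPT library than in each control but missed the threshold. Their log2 fold changes were 0.11 (adjusted p = 0.106, edgeR) and 0.16 (adjusted p = 0.128, edgeR). KIF16B, an early endosome motor, measured between 43.7 and 49.1 CPM in the controls and between 47.3 and 54.2 CPM with DAPT, at log2 0.14 (adjusted p = 0.131, edgeR). It became a call without control replicate 1 (log2 0.20, adjusted p = 0.0241).

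KIF1C, a carrier of dense-core vesicles and integrins, was the most abundant transport kinesin per length after KIF5B and had a log2 fold change of -0.04, with a 95% interval from -0.15 to 0.06. KIF1B, which carries mitochondria and vesicles, had 0.05, from -0.07 to 0.16, and the minus-end motor KIFC2 had -0.07, from -0.23 to 0.09. All of these intervals lay above that of KIF2C, the mitotic kinesin with the largest decrease, from -0.52 to -0.31. No test of a difference between genes was made. In all, 5 of the 12 tested transport kinesins did not overlap on the higher side, against 23.6% of all genes tested. On the lower side 2 did not overlap, against 22.7%. Without control replicate 1 these were 6 and 3, against 29.5% and 29.2% of all genes. When libraries were scaled by size alone, 6 transport kinesins were higher and 1 was lower, in place of 3 and 2.

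Among the other kinesins, KIF6 had the largest decrease of the family. KIF6, a motor linked to motile cilia, measured 21.5, 22.4 and 21.1 CPM in the controls and 14.9, 14.0 and 13.8 CPM with DAPT. The groups were far apart, and the log2 fold change was -0.61 (SE 0.09, adjusted p = 1.11e-05, edgeR), a fold of 0.657, on 179 to 345 reads per library. KIF21B, which slows microtubule growth, rose from 6.66, 6.86 and 6.54 CPM in the controls to 8.83, 9.51 and 8.45 CPM with DAPT. Its log2 fold change was 0.42 (SE 0.12, adjusted p = 0.0111, edgeR), on 79 to 136 reads per library, and the call was lost without DAPT replicate 2 (adjusted p = 0.052) and with DESeq2 (0.0924). KIF7, the kinesin of the ciliary tip that regulates GLI factors in hedgehog signalling, measured 26.5, 31.7 and 27.8 CPM in the controls and 35.6, 32.0 and 35.0 CPM with DAPT.

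The lowest DAPT library for KIF7 lay just above the highest control, and the log2 fold change was 0.26 (SE 0.08, adjusted p = 0.0178, edgeR). Its call was lost without control replicate 1 (adjusted p = 0.0515), control replicate 3 (0.0579), DAPT replicate 1 (0.0578) or DAPT replicate 3 (0.0558) and with DESeq2 (0.0628). KIF24, which restrains cilium formation at the mother centriole, measured 26.2, 24.3 and 28.1 CPM in the controls and 23.0, 23.3 and 20.9 CPM with DAPT, a log2 fold change of -0.22 (SE 0.08, adjusted p = 0.0375, edgeR). The groups did not overlap, but the call was lost without control replicate 1 (0.055), control replicate 3 (0.153), DAPT replicate 2 (0.0526) or DAPT replicate 3 (0.151), with DESeq2 (0.147) and with the replicate number as a block (0.0565). KIF2A, a depolymerase that acts at spindle poles and in neurons, was lower in each DAPT library, at log2 -0.15 (adjusted p = 0.0747, edgeR), and missed the threshold. IPO11 covers 8.97% of its exon bases on the same strand. KIF21A, KIF26A, KIF27, KIF9 and KIF12 overlapped between groups and had log2 fold changes from -0.22 to 0.13.

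Levels of different genes were compared as CPM per kilobase of counted exon. In the controls KIF5B was highest, at 44.7 ± 2.12, then KIF20A at 43.8 ± 1.52 and KIF2C at 40.2 ± 1.09 (SD, n = 3). The ranges of KIF5B and KIF20A overlapped, and that of KIF2C lay below both. KIF11 (34.8), KIF23 (34.4) and KIFC1 (31.9) followed with neighbouring ranges that overlapped, then KIF1C (27.4), which overlapped neither neighbour. KIF22 (23.9), KIF4A (22.7), KIF3B (21.9) and KIF20B (21.2) formed a run in which each overlapped the next. The 10 highest members were 7 mitotic and 3 transport kinesins. With DAPT, KIF5B stood at 54.0 ± 0.287 and KIF20A at 33.8 ± 1.61. The share of KIF5B in the summed level of the family was between 9.02% and 9.83% in the controls and between 12.05% and 12.7% with DAPT. Part of this rise comes from the sum, in which the mitotic kinesins fell from a mean of 305 to 249 CPM per kilobase. The mean share of KIF1C thus went from 5.71% to 6.12%, although its level went from 27.4 to 26.6.

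**Figure D4:**
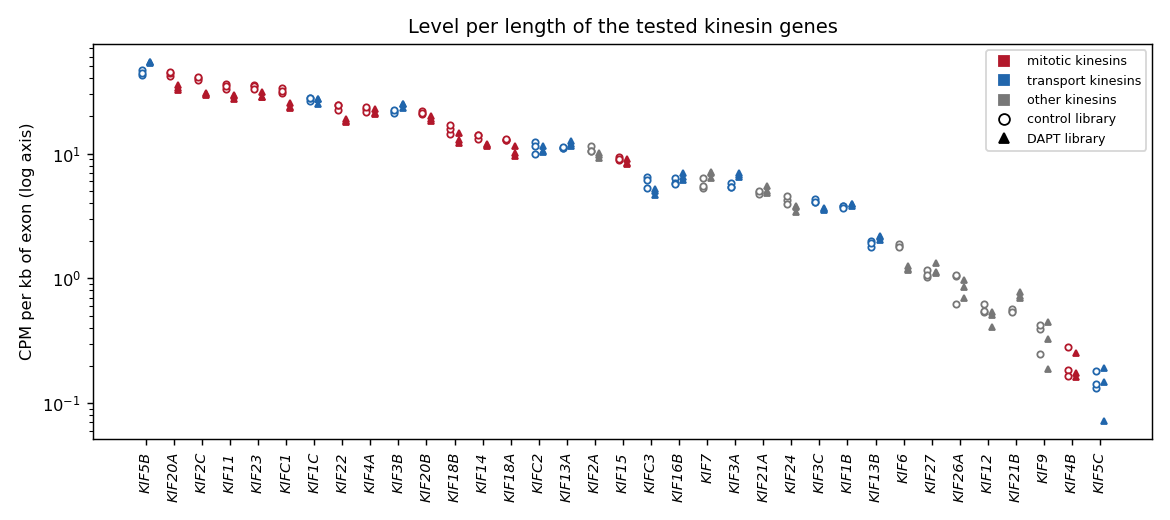
Level of the kinesin genes in CPM per kilobase of exon on a log axis, ordered by the control mean, with open circles for control and filled triangles for DAPT libraries. KIF5B leads at 44.7 in the controls and 54.0 with DAPT, and KIF20A falls from 43.8 to 33.8.

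Summed over the group, the mitotic kinesins gave 1447, 1432 and 1458 CPM in the controls and 1253, 1171 and 1167 CPM with DAPT. The transport kinesins gave 1065, 1059 and 1067 CPM in the controls and 1159, 1116 and 1138 CPM with DAPT. The groups were apart in both sums, in opposite directions, at -17.2% for the mitotic and 6.95% for the transport members. The level of the transport sum is carried mainly by KIF5B, KIF1C, KIF3B and KIF13A. Its mean went from 1064 to 1138 CPM, and most of this rise was in KIF5B, from 262 to 317 CPM. The mean of KIF3B went from 134 to 149 and that of KIF13A from 125 to 134 CPM, while KIF1C went from 235 to 228 CPM. The other kinesins summed to between 201 and 205 CPM in the controls and between 189 and 205 CPM with DAPT, and overlapped. On the scale per kilobase, the ratio of mitotic to transport sums was 2.10, 2.11 and 2.14 in the controls and 1.65, 1.59 and 1.56 with DAPT. No test was made on the sums or their ratio.

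**Figure D5:**
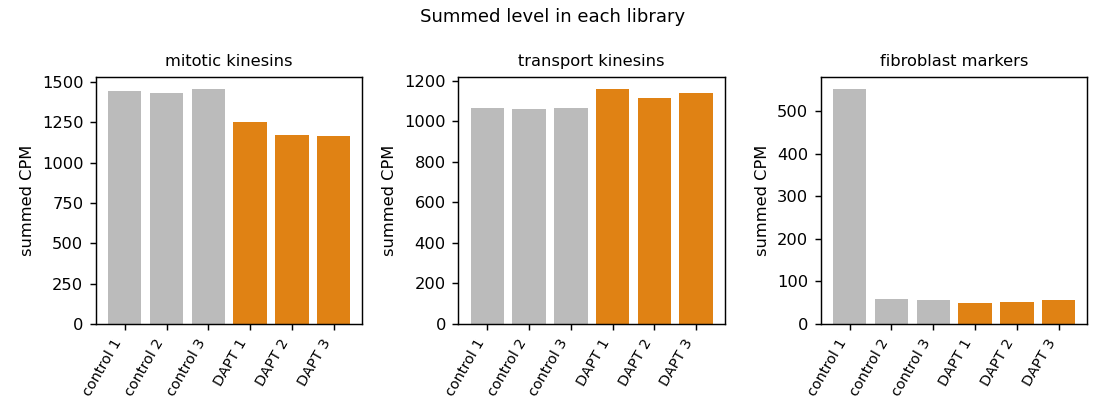
Summed CPM of the mitotic kinesins, the transport kinesins and the 6 fibroblast markers, with 1 bar per library, control in grey and DAPT in orange. Control replicate 1 stands out in the fibroblast panel at 552.5 CPM and not in the kinesin panels. The mitotic sum lies between 1432 and 1458 CPM in the controls and between 1167 and 1253 CPM with DAPT, while the transport sum lies between 1059 and 1067 CPM and between 1116 and 1159 CPM.

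The genes that work with the mitotic kinesins were mostly lower. Of 20 partners, all tested, 16 were lower and 0 were higher (edgeR), with a median log2 fold change of -0.25, beside the 18.0% and 17.2% of all genes. At an unadjusted p-value under 0.05, 16 were lower and 2 were higher (22.2% of all genes in each direction), and DESeq2 called 14 lower and 0 higher (13.6% and 11.4%). The largest called decreases were in PRC1, the bundler that recruits KIF4A and KIF14 to the midzone (-0.50, adjusted p = 0.0347, with groups that overlapped), TACC3, a spindle protein of the clathrin and CKAP5 complex (-0.43, adjusted p = 5.43e-06), and HMMR, which acts at spindle poles (-0.38, adjusted p = 5.7e-05). The smallest were in AURKA, a kinase of spindle poles (-0.12, adjusted p = 0.0483), BIRC5 (-0.17, adjusted p = 0.0127) and CDCA8 (-0.19, adjusted p = 0.0106), both of the passenger complex that KIF20A relocates. RACGAP1, which forms centralspindlin with KIF23, was lower by log2 -0.35 (adjusted p = 4.76e-05, edgeR). CENPE, the kinetochore kinesin, was not called, at -0.07 (adjusted p = 0.398, edgeR). PRC1 shares 57.6% of its exon bases with another gene on the same strand (ENSG00000284946), and reads over both are not counted. Its call was lost without control replicate 2 (adjusted p = 0.145), DAPT replicate 1 (0.197) or DAPT replicate 2 (0.102) and with DESeq2 (0.151). AURKA was lost without control replicate 2 (0.127), control replicate 3 (0.151), DAPT replicate 2 (0.168) or DAPT replicate 3 (0.116) and with DESeq2 (0.0559), BIRC5 without control replicate 3 (0.0665) or DAPT replicate 3 (0.055), and CDCA8 without DAPT replicate 2 (0.0604). Without control replicate 1, 16 partners were lower and 0 were higher.

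Of 19 light chains and adaptors of transport kinesins, 4 (21.1%) were higher and 1 (5.26%) was lower, with a median of 0.08. The share higher was near the 17.2% of all genes, and the share lower was under the 18.0%. TRAK2 (0.33, adjusted p = 9.31e-04) and TRAK1 (0.16, adjusted p = 0.0387), which link KIF5B to mitochondria, and SPAG9 (0.18, adjusted p = 0.00824), a scaffold that binds kinesin-1, were among those higher by edgeR. HAP1, an adaptor known from neurons, was lower (-0.58, adjusted p = 4.79e-06). The light chains KLC1, KLC2, KLC3 and KLC4 were not called, at 0.04, 0.09, -0.26 and 0.02. The number of adaptors called higher was 5 without control replicate 1, with 1 lower, and 2 without control replicate 2, DAPT replicate 1 or DAPT replicate 2. TRAK1 remained called only without control replicate 1, with adjusted p-values from 0.0561 to 0.139 without any other library and of 0.117 with DESeq2, and SPAG9 was lost without control replicate 2 (0.0644).

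Of 28 tested genes of cytoplasmic dynein and dynactin, the motor that runs to the minus end, 5 (17.9%) were higher and 3 (10.7%) were lower, with a median of -0.01. These shares were near or under those of all genes, 17.2% and 18.0%. Without control replicate 1, 5 were higher and 4 were lower. NDEL1 (0.44), DCTN4 (0.39) and BICD1 (0.29) had the largest increases, and BICD2 (-0.30), SPDL1 (-0.25) and ACTR1A (-0.17) were lower. SPDL1 brings dynein to kinetochores, and BICD1 and BICD2 are cargo adaptors of the same motor. The heavy chain DYNC1H1 was not called, at 0.02 with a 95% interval from -0.08 to 0.12. Of 11 tested tubulins, the subunits of the track, 8 were lower and 0 were higher by edgeR, as at an unadjusted p-value under 0.05 and with DESeq2, with a median of -0.31. The shares of all genes were 18.0% lower and 17.2% higher, and the counts were also 8 and 0 without control replicate 1. TUBA4A (-0.97), TUBA1A (-0.93) and TUBA1B (-0.64) fell most, and TUBB6 (-0.24), TUBG1 (-0.28) and TUBB4B (-0.31) least. TUBA1A, at 3.88 to 13.1 CPM, was lost without control replicate 2 (adjusted p = 0.0504), DAPT replicate 1 (0.0811), DAPT replicate 2 (0.131) or DAPT replicate 3 (0.14). The α and β tubulins have near-identical copies, so the split of reads among them is uncertain.

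Of 16 regulators known to act on the promoters of mitotic genes, 5 were lower and 1 was higher, beside 18.0% and 17.2% of all genes. MYBL2 (B-MYB), which joins MuvB to activate such promoters, was lower by log2 -0.59 (adjusted p = 9.66e-07, edgeR). LIN9, a MuvB subunit, had -0.34 (adjusted p = 0.00489), RBL1 (p107), a DREAM pocket protein, -0.33 (adjusted p = 2.29e-04), TFDP1, a partner of E2F factors, -0.25 (adjusted p = 6.14e-04) and RBBP4, a MuvB subunit, -0.16 (adjusted p = 0.0199, edgeR). RBBP4 was lost without DAPT replicate 1 (0.0741) or DAPT replicate 3 (0.050003). LIN54, the MuvB subunit that binds the CHR, was higher, at 0.23 (adjusted p = 0.0272, edgeR). Its call was lost without control replicate 1 (0.078), control replicate 3 (0.0671), DAPT replicate 1 (0.0962) or DAPT replicate 2 (0.07) and with DESeq2 (0.148). Without control replicate 1, 5 regulators were lower and 0 were higher. FOXM1, a factor that joins MuvB later in the cycle, was not called, at 0.04 with a 95% interval from -0.06 to 0.15. The NF-Y subunits NFYA, NFYB and NFYC were not called, at 0.09, -0.15 and 0.15.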

How the data were processed

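Total RNA of HSC-4 cells was made into 6 directional mRNA libraries (3 control, 3 DAPT) and sequenced single-end. Per the methods and file headers, the authors used Trim Galore for trimming and HISAT2 for mapping to GRCh38, then counted reads per gene by strand with featureCounts 1.6.3 (Ensembl release 96). The submitters' processing notes also list HTSeq and DESeq2, with no role. The deposited values are these raw counts. By the default of that counter, reads that map to several places or overlap several genes are not counted, which can lower genes with near-identical copies.

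Symbols came from GENCODE release 44 (58472 of 58884 identifiers matched). Counts were tested with edgeR 4.0.16 in R 4.3.3: low-count filter by group (minimum 10), TMM normalization, robust quasi-likelihood fit and test, with p-values adjusted by Benjamini-Hochberg across 15001 genes. CPM values are TMM-normalized, and levels between genes are per kilobase of exon in the count tables. Depth limits precision most for members with few reads. The test was tried on simulated counts for 14807 genes, where it recovered 91.2% of genes changed by 2-fold with 3.83% false calls. Only 200 genes were changed there, each by 2-fold, while 0 of the 35 tested kinesins reached 2-fold. These rates therefore do not measure recovery or false calls at the size of the kinesin changes. Alternatives were DESeq2 1.42.0, other scalings, no filter, a replicate block, an adjusted p-value under 0.01 and each library left out.

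The members, gene lists and motifs were chosen with earlier results of these data known. Named genes are all kinesins, the called genes with the 3 largest and 3 smallest log2 fold changes of each partner list, HES1 and HEY1. RACGAP1, CENPE, KIFAP3, the light chains, DYNC1H1, FOXM1 and the NF-Y genes were added after their values were seen. No list was given a test of its own. The values of 1 called adaptor and 1 leukocyte marker are not reported here.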

Additional observations from a re-analysis of the deposited data

How the results depend on the processing

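The 35 tested kinesins had 385 log2 fold changes under the alternatives. Of these, 349 stayed on their side of the threshold, 32 lost a call and 4 gained one. The sign changed in 10 cases, none of them called, in KIF4B, KIF1C, KIF5C, KIFC2, KIF9 and KIF26A. Leaving out 1 library at a time, the range was 8 to 10 mitotic kinesins lower, 0 to 0 higher, 1 to 2 transport kinesins lower, 2 to 4 higher, 1 to 2 other kinesins lower, 1 to 2 higher, 13 to 16 partners lower, 2 to 5 adaptors higher, 4 to 5 dynein genes higher and 4 to 5 regulators lower. The median log2 fold change was -0.31 to -0.23 for mitotic and 0.05 to 0.12 for transport kinesins, and 2190 to 2892 genes were lower and 1901 to 2726 higher in all. With scaling by library size alone, the median of all genes moved to 0.06, genes called were 2156 lower and 3445 higher against 2707 and 2574, the mitotic median was -0.20, transport kinesins were 1 lower and 6 higher, and other kinesins were 1 lower. Transport and other kinesins lower were 1 each with no low-count filter, with DESeq2 and at an adjusted p-value under 0.01, and other kinesins higher were 0 with DESeq2 and at 0.01. At 0.01, 2 adaptors and 1516 genes in all were higher, and DESeq2 called 1646 genes higher. Counting only exon bases not shared with IPO11, the control level of KIF2A was 11.9 CPM per kilobase in place of 10.8. For the rest, the cause was not tested.

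With the replicate block, other kinesins lower were 1 in place of 2 (KIF24), and the other counts were 10 mitotic and 2 transport kinesins lower, 3 transport kinesins higher and 15 partners lower. For libraries with the same number, the deviations had correlations of 0.0173, 0.0252 and 0.00382. These values, taken over all tested genes, gave no sign that the numbers pair the samples. They cannot show a batch that acts on only part of the genes, and such pairing was not tested.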
